A study of Mus musculus with 8 samples.

Results

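Siglecs are cell surface lectins of the immunoglobulin superfamily that bind sialic acid on glycoproteins and glycolipids. Most carry inhibitory tyrosine motifs in their tails, which recruit the phosphatases SHP-1 (Ptpn6) and SHP-2 (Ptpn11), whereas others, Siglec-H among them, pair with the activating adaptor DAP12 (Tyrobp). Macrophages are known for Siglec1 (sialoadhesin, CD169), a long receptor without an inhibitory tail that binds sialylated cells and vesicles, and myeloid cells for the CD33-related group. The family was taken as the 7 genes with the symbols Siglec1, Cd33, Siglece, Siglecf, Siglecg, Siglech and Cd22, matched by name among 21051 genes listed in a full sample table, with no threshold on their values. All 7 were listed.

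The RNA was measured by RNA-Seq in tumor-associated macrophages (TAMs), sorted by flow cytometry as CD45+F4/80+ cells from s.c. melanomas of B16, a pigmented C57BL/6 melanoma line, 14 days after injection. The study compared 4 libraries from WT C57BL/6 mice (TAM-WT) with 4 from Colec11-/- mice of the same strain (TAM-KO), which lack the lectin collectin-11 in the whole body. According to the study's methods, the mice were young adult males, and the WT animals were littermates. The study counts mice as the replicates of these data, while the labels name no animals, so the p-values measure the spread between these samples.

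Between 16225362 and 17280267 reads fell on genes in 7 of the 8 libraries. The table of TAM-KO replicate 1 lacks 5311 genes. Of the family, Cd22 and Cd33 were missing there. Cd33 could be read for that library from a table of the whole series, and Cd22 is given for 3 TAM-KO libraries. The targeted gene, Colec11, had at most 4 counts in any library of either group, so it cannot check the genotype. The macrophage markers C1qa (1795 ± 220 FPKM in TAM-WT and 2100 ± 54.3 in TAM-KO, mean ± SD, n = 4 and 3) and Lyz2 (7637 ± 1006 and 5405 ± 1174 FPKM, n = 4 each) were abundant in both groups, and neither passed the test (log2 fold changes 0.13 and -0.70, adjusted p = 0.447 and 0.0548 with edgeR). Also abundant was the melanocyte gene Pmel (795 ± 366 and 1272 ± 170 FPKM, n = 4 each), although the sort was for CD45+F4/80+ cells. TAM-WT replicate 1 stood apart from the other TAM-WT libraries in lymphocyte genes, with Nkg7 at 5.82 FPKM against 0.10 to 0.21.

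Of the 7 Siglecs, Cd33 fell and Siglece rose in TAM-KO, and neither Siglec1, the most abundant, nor Cd22 passed the test. Calls were made at an adjusted p of at most 0.05 with edgeR's quasi-likelihood test and Benjamini-Hochberg adjustment over all 12412 genes tested. At that threshold 9.81% of all genes tested were called, 4.58% as higher and 5.24% as lower in TAM-KO. Of the members, 6 were tested and 2 were called, 1 in each direction. Siglecf was too low to be tested.

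Cd33 and Siglece both belong to the CD33-related receptors of myeloid cells, and lie in the same cluster of Siglec genes on mouse chromosome 7. As the 2 members that passed the test, their promoters are shown here, each with 250 bases before and 50 bases after a transcript start, read 5′ to 3′ along the gene's minus strand from the RefSeq sequences of GRCm38.p6. Both windows lie within the annotated span of their gene. Capitals mark GAGGAA, the core of a site for PU.1, the myeloid transcription factor, on either strand (TTCCTC on the other). This motif was chosen after the sequences had been seen.

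Cd33, chr7:43533122-43533421: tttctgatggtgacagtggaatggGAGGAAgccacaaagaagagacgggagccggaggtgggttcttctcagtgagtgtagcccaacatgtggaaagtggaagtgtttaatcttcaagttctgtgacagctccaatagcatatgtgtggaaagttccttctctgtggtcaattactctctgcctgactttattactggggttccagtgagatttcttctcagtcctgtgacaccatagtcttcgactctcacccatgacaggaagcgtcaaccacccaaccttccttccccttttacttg
Siglece, chr7:43660112-43660411: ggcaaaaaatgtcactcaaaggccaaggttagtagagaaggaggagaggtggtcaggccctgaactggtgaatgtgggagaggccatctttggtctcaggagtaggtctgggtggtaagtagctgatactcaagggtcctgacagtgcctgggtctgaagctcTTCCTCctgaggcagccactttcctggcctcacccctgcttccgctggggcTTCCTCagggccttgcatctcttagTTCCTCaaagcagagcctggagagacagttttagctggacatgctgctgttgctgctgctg

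The Cd33 window held GAGGAA 1 time and the Siglece window 3 times, and 28.3% of all 32851 promoter windows of the table held it at least once. The core of the interferon-stimulated response element, written GAAANNGAAA and searched on both strands, was in no window of the 6 members found in the table, against 3.44% of all windows. A match of letters is a description of the window and says nothing of binding.

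Levels are given as FPKM, fragments scaled to transcript length and to the mapped reads of the library, which can be compared between genes. In every library, Siglec1 stood far above the other members that had a value there. In TAM-WT it measured 71.3, 64.1, 63.8 and 59.6 FPKM (replicates 1 to 4), and in TAM-KO 50.2, 74.8, 66.6 and 79.3. The groups overlapped, with TAM-KO replicate 1 the lowest library and TAM-KO replicate 4 the highest. The fitted log2 fold change was -0.05 (SE 0.13, 95% interval -0.33 to 0.24, adjusted p = 0.842 with edgeR). Its sign turned when library totals replaced TMM scaling (0.04) and without TAM-KO replicate 1 (0.07), with no call in any fit. Siglec1 made up 61.8% to 71.5% of the summed FPKM of the family in the 7 libraries with all members.

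**Figure D1:**
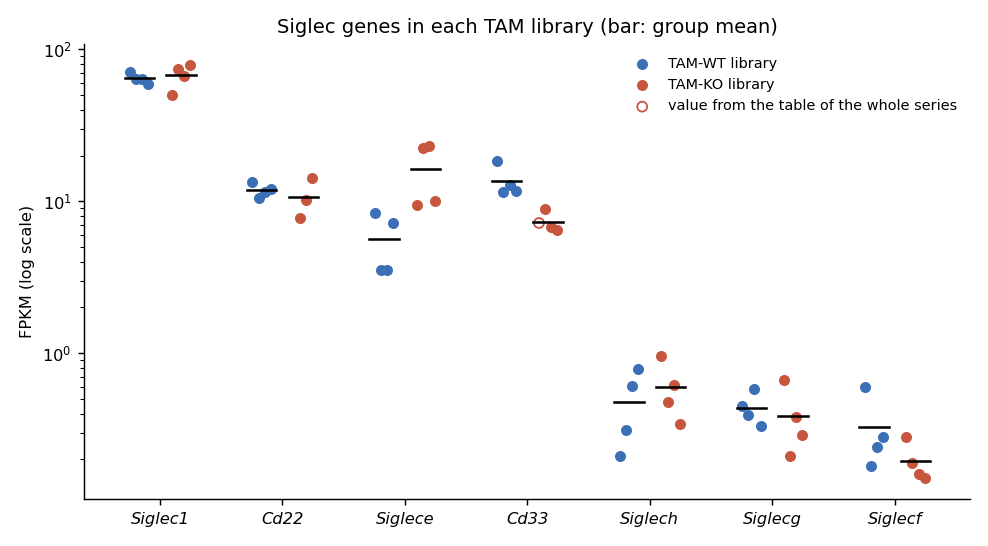
FPKM (log axis) of the 7 Siglec genes in each library, TAM-WT in blue and TAM-KO in red, with the group mean as a bar. The open circle is Cd33 in TAM-KO replicate 1, from the table of the whole series, and Cd22 has 3 TAM-KO libraries. Siglece lies higher in TAM-KO and Cd33 lower, both without overlap, while Siglec1 sits near 66.2 FPKM in both groups.

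Cd33 was read at 18.5, 11.5, 12.8 and 11.8 FPKM in TAM-WT, and at 7.19, 8.88, 6.81 and 6.44 FPKM in TAM-KO. Every TAM-KO library lay below every TAM-WT library, and TAM-WT replicate 1 stood above the other 3. The means were 13.6 ± 3.29 and 7.33 ± 1.08 FPKM (SD, n = 4 each). On 4 TAM-WT and 3 TAM-KO libraries the log2 fold change was -0.99 (SE 0.18, 95% interval -1.40 to -0.57, adjusted p = 0.0232 with edgeR), a 1.98-fold decrease that falls just under the 2-fold change that the study asks of a differentially expressed gene. The call was lost without TAM-WT replicate 3 (adjusted p = 0.0665), and likewise when either TAM-KO replicate 2 (0.0719) or replicate 3 of that group (0.0914) was left out. Over all genes, these fits called 151, 77 and 77, against 1218 in the main fit. Without TAM-WT replicate 1 the log2 fold change was -0.83 (adjusted p = 0.0186).

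Siglece, the mouse inhibitory receptor that recruits SHP-1 and restrains neutrophils and macrophages, was read at 8.42, 3.55, 3.52 and 7.16 FPKM in TAM-WT. In TAM-KO it was read at 9.46, 22.4, 23.0 and 10.1 FPKM. The groups did not overlap, but the gap between TAM-WT replicate 1 and TAM-KO replicate 1 was small, and each group held a lower and a higher pair of libraries. The means were 5.66 ± 2.51 and 16.3 ± 7.49 FPKM (SD, n = 4 each). The log2 fold change was 1.37 (SE 0.37, 95% interval 0.54 to 2.19, adjusted p = 0.0465 with edgeR on 8 libraries), a 2.58-fold increase. In the main fit, Siglece was the 1 member past both the test and a 2-fold change, which 2.53% of all genes tested passed. The adjusted p of the main fit lay close to the threshold. The call was lost in 5 of the 8 fits that left out a library. These were the fits without TAM-WT replicates 3 (0.128) and 4 (0.0783) and without TAM-KO replicates 1 (0.0516), 2 (0.144) and 3 (0.135). Over all genes, they called 151, 416, 682, 77 and 77 in that order, against 1218 in the main fit. The log2 fold change of Siglece stayed between 1.15 and 1.61 in the 8 fits.

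**Figure D2:**
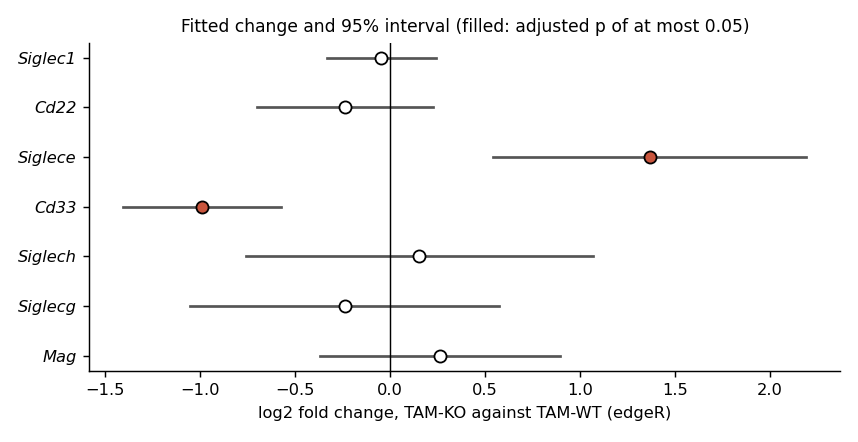
Fitted log2 fold changes of TAM-KO against TAM-WT with 95% intervals for the 6 tested Siglecs and for Mag, filled where the adjusted p was at most 0.05. The intervals of Cd33 (-1.40 to -0.57) and Siglece (0.54 to 2.19) leave out 0, and the others include it.

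The order of both genes thus changed between the groups. In TAM-WT, Cd33 and Cd22 overlapped in FPKM and Siglece lay below both. In TAM-KO, Siglece and Cd22 overlapped, as did Cd22 and Cd33, and every Siglece value lay above every Cd33 value. The ratio of Siglece to Cd33 in FPKM was 0.455, 0.308, 0.276 and 0.609 in the TAM-WT libraries, and 1.32, 2.53, 3.38 and 1.57 in the TAM-KO libraries. The sum of the 2 levels overlapped between the groups (19.3 ± 5.33 and 23.6 ± 8.09 FPKM). As the pair was chosen for its opposite changes, the ratio is a description and was not tested.

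**Figure D3:**
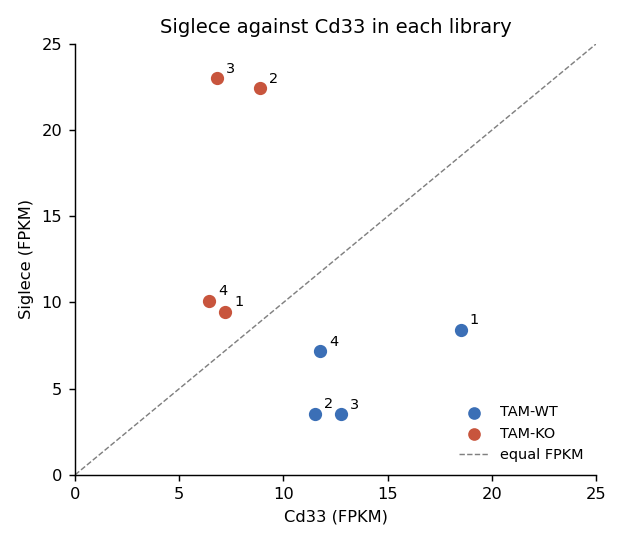
Siglece (FPKM) against Cd33 (FPKM) in each library, numbered by replicate, with a dashed line at equal FPKM. The 4 TAM-WT libraries lie below the line and the 4 TAM-KO libraries above it, with ratios of 0.276 to 0.609 and of 1.32 to 3.38. Cd33 in TAM-KO replicate 1 comes from the table of the whole series.

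In all, 2 of the 7 members had FPKM values without overlap between the groups, which also held for 18.9% of all genes tested. In bulk samples, fewer cells of a type and less RNA per cell cannot be told apart, so a change in these genes may be either.

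Cd22, the inhibitory receptor of B cells that dampens signaling of the antigen receptor, measured 13.31, 10.47, 11.46 and 12.03 FPKM in TAM-WT, and 7.81, 10.1 and 14.2 in TAM-KO replicates 2, 3 and 4. The highest and the lowest library were both TAM-KO. The log2 fold change was -0.23 (SE 0.20, 95% interval -0.70 to 0.23, adjusted p = 0.470 with edgeR). The B cell marker Ms4a1, which encodes CD20, was near 0 beside it, at 0 to 0.11 FPKM across the 8 libraries. The summed level of the 12 B cell markers was 9.41 to 12.5 CPM in TAM-WT and 8.85 to 15.2 CPM in TAM-KO (counts scaled to the library total, without TAM-KO replicate 1). Of the 4 tested, 1 was called (25%, against 9.81% of all genes tested). This was Bank1, which fell (log2 fold change -0.79, adjusted p = 0.0309 with edgeR). Cd79b, the most abundant, was at 4.12 ± 1.58 and 7.24 ± 2.97 FPKM without passing the test. Cd22 was read far above Ms4a1 in each of its 7 libraries.

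The other 3 members had at most 31 counts in any library. Siglech, a DAP12-coupled receptor that marks plasmacytoid dendritic cells and microglia, measured 0.21, 0.31, 0.61 and 0.78 FPKM in TAM-WT, and 0.96, 0.48, 0.62 and 0.34 in TAM-KO (log2 fold change 0.15, SE 0.41, adjusted p = 0.830 with edgeR). The libraries were mixed in order. Siglecg, an inhibitory receptor best known in B-1 cells, was read at 0.45, 0.39, 0.58 and 0.33 FPKM in TAM-WT, and at 0.67, 0.21, 0.38 and 0.29 in TAM-KO (log2 fold change -0.24, SE 0.36, adjusted p = 0.697 with edgeR). For these 2 genes the intervals of -0.76 to 1.07 and -1.05 to 0.58 each reach a change of about 2-fold on 1 side, so such a change is not excluded by these data.

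Siglecf, the receptor of eosinophils and alveolar macrophages, measured 0.60, 0.18, 0.24 and 0.28 FPKM in TAM-WT, and 0.28, 0.19, 0.16 and 0.15 in TAM-KO (6 to 23 counts). TAM-WT replicate 1 was the highest, and the other 7 libraries were intermixed. Without a filter on low counts its log2 fold change was -0.81 (adjusted p = 0.272 with edgeR).

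Markers of the cells that these receptors are known from were weak or not called. Of 11 eosinophil markers, 6 had no value or at most 3 counts in every library, the granule genes Epx, Prg2 and Prg3 among them. Of the 3 eosinophil markers tested, none was called. The sum over the list was 18.6 to 31.2 CPM in TAM-WT and 12.4 to 17.4 CPM in TAM-KO, without TAM-KO replicate 1. That library had Ear2, the most abundant of the list, at 31.95 FPKM. The other TAM-KO libraries had 17.86 to 25.02 FPKM and the TAM-WT libraries 19.99 to 57.34. Of the 12 markers of plasmacytoid dendritic cells, 8 were tested and none was called, where 9.81% of all genes tested were. Of these 8, 6 had a positive log2 fold change, and the median was 0.41. The list summed to 385 to 549 CPM in TAM-WT and 578 to 668 CPM in TAM-KO, without TAM-KO replicate 1. Pld4, its most abundant gene, was at 142 ± 29.3 and 202 ± 34.8 FPKM (adjusted p = 0.0784 with edgeR). Spib was at 0.14 to 0.33 FPKM, and Irf8, which macrophages also express, at 60.2 ± 8.11 and 65.5 ± 1.62 FPKM.

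Among other Siglec genes, Mag, which encodes the myelin-associated glycoprotein and lies next to Cd22, was at 1.76 ± 0.645 FPKM in TAM-WT and 2.26 ± 0.225 in TAM-KO (n = 4 and 3, log2 fold change 0.27, SE 0.28, adjusted p = 0.549 with edgeR). Siglec15, a receptor of osteoclasts and some myeloid cells, had at most 3 counts in any library.

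On chromosome 7 lie 6 of the 7 members, and on chromosome 2 lies Siglec1 (chr2:131067801-131086778, GRCm38.p6). From the start of Siglecf to the end of Siglece, 320.704 kb hold Siglecf (chr7:43351341-43359475), Siglecg (chr7:43408192-43418349), Cd33 (chr7:43527399-43537424) and Siglece (chr7:43648882-43672044). Of the 18 protein-coding genes that overlap this span, 9 were tested and 3 were called, where 9.81% of all genes tested were called. The 3 include Cd33 and Siglece, whose calls are given above, so the count is no separate result about the span. Besides Cd33 and Siglece, the gene called was Nkg7, a cytotoxic granule gene of NK and T cells (log2 fold change 3.38, SE 0.78, adjusted p = 0.0323 with edgeR). Between Cd33 and Siglece lie 111.457 kb and 3 zinc finger genes, of which Zfp658 (0.01) and Zfp719 (-0.18) were tested and were not called. Cd33 and Siglece thus moved in opposite directions on either side of genes that did not pass the test.

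**Figure D4:**
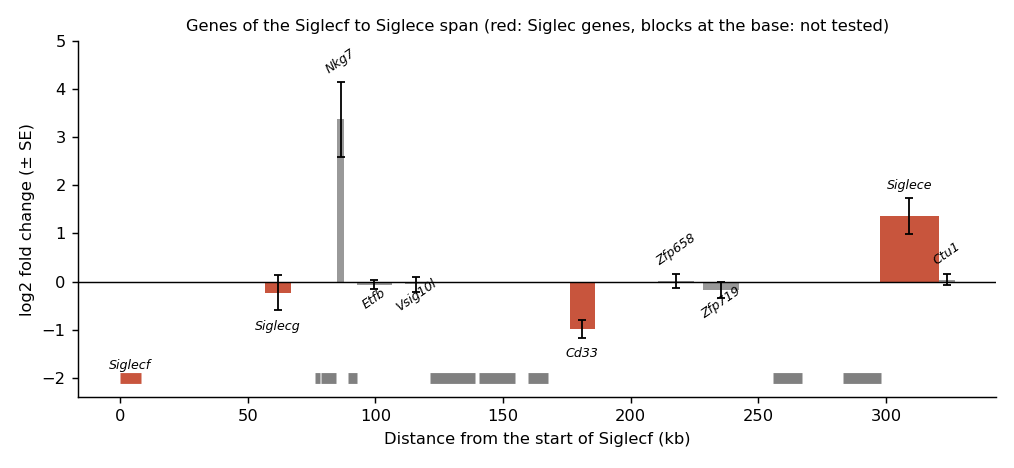
Genes along the span from Siglecf to Siglece by distance from the start of Siglecf in kb, with the fitted log2 fold change (bars, ± SE) of the 9 tested genes, and blocks at the base for genes not tested. Siglec genes are red. Cd33 goes down by 0.99 on the log2 scale, Siglece goes up by 1.37, and Nkg7 has the highest bar at 3.38.

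Siglece overlaps its neighbors Ctu1 by 74 bases and Ceacam18 by 414 bases. Ctu1 did not pass the test (log2 fold change 0.04), and Ceacam18 had at most 1.02 counts in any library. Whether the libraries kept the strand is not given in the sources used here, so reads in the shared bases cannot be assigned.

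The genes whose profiles across the libraries were most like each abundant member were found by the root mean square (RMS) difference of log2(CPM + 0.5) values, each centered on its own mean. For Siglece these were Gbp7 (RMS difference 0.14), Fcgr4 (0.18) and Gbp3 (0.20) among 8344 genes on 8 libraries, where Siglece itself deviated from its mean by 0.87 (RMS). Gbp7 and Gbp3 encode interferon-inducible GTPases, and Fcgr4 an activating receptor for IgG. For Cd33 they were Hpgd (0.16), which encodes a prostaglandin-degrading enzyme, St8sia4 (0.16), a polysialyltransferase, and Ints6l (0.18), among 10373 genes on 7 libraries, against a deviation of 0.52 for Cd33 itself. For Siglec1 they were Map1s, Dip2a and Ankrd52 (0.08, 0.09 and 0.09, against 0.19), and for Cd22 Tfec, Nol4l and Abcc1 (0.11, 0.12 and 0.13, against 0.30).

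Downstream of the receptors, 18 adaptors, kinases, phosphatases and ubiquitin ligases known to work with Siglec tails were all tested, and 2 rose and 0 fell, or 11.1% called against 9.81% of all genes. Their median log2 fold change was 0.10, against 0.00 for all genes tested. The kinase genes Src (8.15 ± 2.56 FPKM in TAM-WT and 13.4 ± 0.778 in TAM-KO, n = 4 each, log2 fold change 0.61, adjusted p = 0.0403 with edgeR) and Csk, whose product restrains Src family kinases (log2 fold change 0.28, adjusted p = 0.0448 with edgeR), were those called. The adaptor Tyrobp was the most abundant, at 937 ± 91.6 and 879 ± 39.1 FPKM, and did not pass the test (log2 fold change -0.18, adjusted p = 0.187 with edgeR). Ptpn6, the gene of SHP-1, was read at 112 ± 19.9 and 159 ± 15.5 FPKM (n = 4 and 3, adjusted p = 0.0867 with edgeR). Both calls were lost in several fits that left out 1 library, where the count ranged from 0 to 7, and that over all genes from 77 to 2755.

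Of 37 genes that make, attach, remove or carry sialic acid, the ligand of Siglecs, 27 were tested, and 3 rose and 2 fell. That is 18.5% called, against 9.81% of all genes tested. The median log2 fold change was -0.03, against 0.00 for all genes tested. Npl, the lyase that breaks down free sialic acid, was at 86.1, 109, 100 and 93.0 FPKM in TAM-WT, and at 44.7, 11.9, 13.8 and 44.7 in TAM-KO (log2 fold change -1.85, SE 0.41, adjusted p = 0.0293 with edgeR). The groups were far apart, with TAM-KO replicates 2 and 3, which held the most Siglece, at the lowest Npl.

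St8sia4, which extends polysialic acid, fell from 11.4 ± 1.87 to 6.39 ± 0.703 FPKM (log2 fold change -0.86, adjusted p = 0.0126 with edgeR). St3gal4, a sialyltransferase that makes α2,3-linked ends, rose from 17.7 ± 2.39 to 27.9 ± 2.68 FPKM (log2 fold change 0.56, adjusted p = 0.0160 with edgeR). Casd1, which acetylates sialic acid, and Gne, the entry enzyme of its synthesis, rose by less (log2 fold changes 0.39 and 0.29, adjusted p = 0.0460 and 0.0473 with edgeR). Cd52, a short sialylated surface protein and the most abundant of the list, was at 437 ± 137 and 649 ± 89.9 FPKM (adjusted p = 0.122 with edgeR).

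Siglec1 is known as a gene that type I interferon raises, and 22 of 24 interferon response genes could be tested beside it. Of these, 6 rose and 0 fell, 22 of 22 had a positive log2 fold change, and the median was 0.82. The count of 6 (27.3% called, against 9.81% of all genes tested) depended on single libraries. It fell to 0 when replicate 3 of TAM-WT, or replicate 2 or 3 of TAM-KO, was left out. These fits also called fewer genes over all genes (151, 77 and 77, against 1218 in the main fit). Leaving out replicate 4 or 1 of TAM-KO gave 1 and 2 calls (1136 and 682 over all genes). Leaving out replicate 2 of TAM-WT gave 12 (2755 over all genes). Ifi44 (log2 fold change 2.10), Oas3 (1.21), Xaf1 (0.87), Stat2 (0.85) and Ddx58 (0.71) were among those called, with adjusted p of 0.0384 to 0.0459 with edgeR. Stat2, a transcription factor of interferon signaling, was read at 20.94, 10.22, 14.54 and 21.50 FPKM in TAM-WT, and at 25.59, 33.77, 35.45 and 35.79 in TAM-KO. Of the 22 genes, 13 had FPKM values without overlap between the groups, Stat2 among them, where 18.9% of all genes tested had none. The other 9 overlapped, as Siglec1 did. Siglec1's interval of -0.33 to 0.24 lay below the median of the list. The difference between Siglec1 and the list was not tested.

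**Figure D5:**
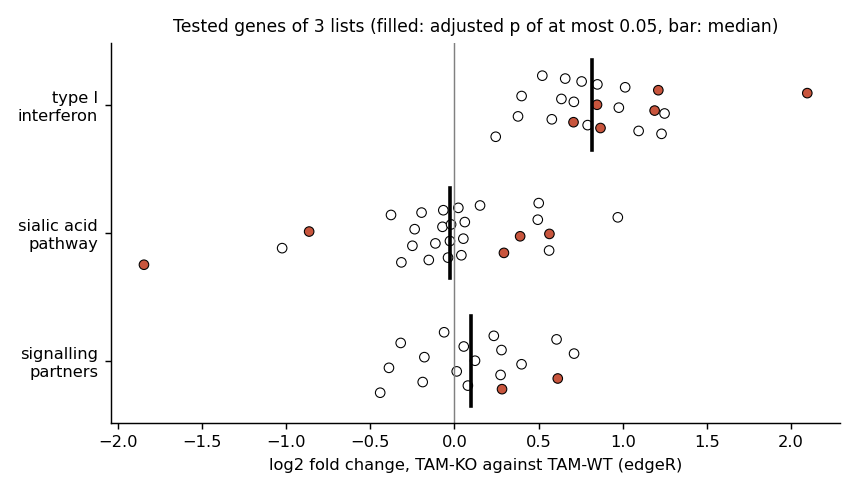
Fitted log2 fold changes of the tested genes of 3 lists, with filled points at an adjusted p of at most 0.05 and a bar at each list's median. The medians are 0.10 for the 18 signaling partners, -0.03 for the 27 sialic acid genes and 0.82 for the 22 interferon genes. Vertical scatter within a list has no meaning.

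Among the libraries other than TAM-KO replicate 1, the sums of the interferon and T cell lists were higher in TAM-KO, as Siglece was. The same held for the signaling partners (2275 to 2820 CPM in TAM-WT and 2865 to 3019 CPM in TAM-KO). It also held for the lists of plasmacytoid dendritic cells, fibroblasts and endothelial cells. The NK cell sums overlapped between the groups. Whether any of these levels varied with Siglece was not tested. TAM-KO replicate 1 is left out of all sums here and in the next paragraph. That library was the lowest of TAM-KO in the interferon genes Stat2 (25.59 FPKM, above every TAM-WT library) and Bst2 (243.08 FPKM, within the TAM-WT range). The summed interferon list was 765 to 1782 CPM in TAM-WT and 2464 to 2775 CPM in TAM-KO, and its lower TAM-WT libraries were replicates 2 and 3, the lowest in Siglece as well. The 12 T cell markers summed to 14.9 to 43.7 CPM in TAM-WT and 49.4 to 118 CPM in TAM-KO, with 3 called as higher (25% of those tested). The 10 NK cell markers summed to 1.64 to 39.5 CPM and 38.1 to 119 CPM, with 2 called as higher (33.3% of those tested). Of all genes tested, 9.81% were called. Of 10 monocyte markers, 4 rose, with Plac8 up from 44.4 ± 14.0 to 127 ± 22.2 FPKM, and Fn1 fell (log2 fold change -1.63), or 50% called. The sum of the monocyte list, which includes the abundant Fn1, was 1732 to 3373 CPM in TAM-WT and 1204 to 1437 CPM in TAM-KO.

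Of the 12 macrophage markers 0 were called by edgeR, where 9.81% of all genes tested were called. Their sum was 13937 to 16144 CPM in TAM-WT and 12075 to 14504 CPM in TAM-KO, without TAM-KO replicate 1. TAM-KO replicates 2 (12940.5 CPM) and 3 (12075 CPM) lay below every TAM-WT library, and TAM-KO replicate 4 (14504 CPM) lay within their range. Of 11 neutrophil markers, 5 were tested and 1 rose (20% of those tested). Their sums were 101 to 164 and 125 to 137 CPM without TAM-KO replicate 1, the library that was highest in S100a8 (73.46 FPKM against 9.13 to 15.83 in the other TAM-KO libraries) and S100a9 (80.03 against 5.09 to 13.29), 2 neutrophil genes named after their values were seen. That library had the least Siglece of TAM-KO, and without it the log2 fold change of Siglece was 1.55 (adjusted p = 0.0516 with edgeR). The 10 melanoma markers summed to 6153 to 11587 CPM in TAM-WT and 10376 to 12967 CPM in TAM-KO, with 1 called as higher (10%, near the 9.81% of all genes tested). The 10 conventional dendritic cell markers had 1 called as higher (also 10%) and sums of 26.9 to 60.7 and 43.0 to 49.6 CPM. Fibroblast markers (12.6 to 37.8 and 38.8 to 44.3 CPM) and endothelial markers (25.4 to 39.5 and 41.4 to 54.5 CPM, none called) were low. Of the fibroblast markers only Thy1 was called (14.3% of those tested), which is also 1 of the T cell markers called. The part of these cells, melanoma cells among them, in the changes of Siglece, of Cd33 and of the genes of the pathway lists, such as Src, was not tested.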

How the data were processed

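RNA of CD45+F4/80+ TAMs was sequenced on the BGISEQ-500 platform for 4 WT and 4 Colec11-/- samples, grouped by the genotype in the labels. The processing notes name HISAT2 2.0.4, Bowtie2 2.2.5, RSEM 1.2.12 and GRCm38.p6. The authors deposited RSEM expected counts without normalization, and FPKM values normalized to gene length and mapped reads. TPM values, 16 columns, were not used. The deposited table of the comparison also holds the authors' log2 ratios, p-values and q-values, which were not used.

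The table of TAM-KO replicate 1 lacks an unbroken run of 5311 genes. Where the series-wide table gave that library's value, it entered FPKM means, ratios and overlaps and 1 alternative fit, but not the main test.

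The main test on rounded expected counts was edgeR 4.0.16 under R 4.3.3 (glmQLFit and glmQLFTest, with TMM and filterByExpr). Genes with 8 values were fitted on 8 libraries and the rest on 7, with p adjusted over both. Alternatives used DESeq2 1.42.0, limma 3.58.1, other scalings, filters and thresholds, a replicate block, and leaving out each library. The method was tested on simulated data. No 2 libraries of a group agreed within sampling noise. The depth of 16225362 to 17280267 reads on genes leaves 3 members with at most 31 counts a library.

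Members and gene lists were chosen with earlier results of these data known. Genes named are the members, Mag, Siglec15 and Colec11; of the 3 pathway lists, the called genes (at most 6 of smallest adjusted p) and the 2 most abundant; the 2 most abundant markers of each cell type; and the 3 profiles most like each member with a mean CPM of at least 5. Some genes under this rule are not reported here. Ms4a1, Spib, Epx, Prg2, Prg3, S100a8, S100a9 and the neighbors of the Siglec genes were named after their values were seen.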

Additional observations from a re-analysis of the deposited data

Results flagged for a closer look

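Of 93 groups of 4 libraries tested over the named genes, 7 held a library far from the other 3, where chance gives about 4.65, since it marks about 1 in 20 groups. In TAM-WT replicate 1, markers of T and NK cells stood above the other TAM-WT libraries, with Cd3g at 4.58 FPKM against 0.15 to 0.23, Thy1 at 4.67 against 0.47 to 1.06, Nkg7 at 5.82 against 0.10 to 0.21, and Gzmb at 6.55 against 0.23 to 0.47. The same library had the most Cd33 and the most Siglece of its group. In TAM-KO replicate 1, the interferon response genes Oas3 (13.11 FPKM against 19.41 to 20.46) and Ddx58 (17.14 FPKM against 21.58 to 22.06) lay below the other TAM-KO libraries, and that library also had the lowest Siglec1 and the lowest Siglece of its group. Fn1 was at 361.29 FPKM in TAM-WT replicate 3 against 161.43 to 190.62 in the other TAM-WT libraries.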

How the results depend on the processing

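Over 18 alternatives, Cd33 and Siglece kept their direction in each (log2 fold changes -1.10 to -0.79 and 1.15 to 1.61), and their call in 15 and 11. The other tested members were called in none. For Cd33, the fit without TAM-KO replicate 1 repeats the main fit and differs only in the adjusted p (0.0334 with edgeR). DESeq2 gave Siglece an adjusted p of 0.0200 and Cd33 4.72e-05. The labels do not say whether replicate numbers pair the samples, and correlations of deviations could not settle it. They were -0.417, 0.027, -0.285 and 0.291 between same-numbered libraries, within the range of differently numbered ones (-0.427 to 0.486). With the replicate block, Siglece had an adjusted p of 0.105, 1 member and 29 cell type markers were called, and 1080 genes in all. With TAM-KO replicate 1 filled from the series-wide table, edgeR gave Siglece an adjusted p of 0.0547 and Cd33 0.0162 (log2 fold change -1.01). In that fit 1 member, Cd33, 3 sialic acid genes and 2 interferon genes were called, against 2, 5 and 6. Library totals called 4 signaling partners, 14 interferon genes and 24 cell type markers, against 2, 6 and 14. DESeq2 called 5 partners, 9 sialic acid genes and 14 interferon genes, and limma voom with quality weights 9, 11 and 15. limma called 13 interferon genes on log2(FPKM + 1) and 13 on log2(FPKM + 0.1), and edgeR without a filter called 11. At an adjusted p of at most 0.01, 0 members, 0 partners, 0 sialic acid genes and 0 interferon genes were called. With a fold change of at least 2 as well, 1 member, 0 partners, 1 sialic acid gene and 3 interferon genes were. Over all genes, DESeq2 called 2253 and voom 3625, against 1218. Leaving out 1 library at a time gave 77 to 2755 calls over all genes, 0 to 2 members, 0 to 7 partners, 0 to 10 sialic acid genes, 0 to 12 interferon genes and 2 to 38 cell type markers. The log2 fold change of Siglec1 turned positive with library totals (0.0354), with limma on log2(FPKM + 1) (0.0466) and on log2(FPKM + 0.1) (0.0470), and without TAM-KO replicate 1 (0.0692), and was as low as -0.14 with a library left out. That of Siglech turned negative with voom (-0.0575), without TAM-WT replicate 1 (-0.0391) and without TAM-KO replicate 1 (-0.2056), and was as high as 0.39 with a library left out. Limma on log2(FPKM + 0.1) moved the median of all genes by 0.10. The cause of these differences was not tested. Siglecf, Siglecg and Siglech had no more than 31 counts a library, and Siglece, with up to 689, had as large a standard error (0.37) as Siglecg (0.36).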
